A study of Mus musculus with 22 samples.

Results

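The nuclear RNA exosome, the adaptors that bring RNA to it and the mRNA export factors were followed as 10 genes in mouse embryonic stem cells (ESCs). They were chosen by name, with earlier results of these data known. They are Zcchc8 and Rbm7, Zfc3h1 and Pabpn1, Exosc3, Exosc9, Exosc10 and Dis3, and Nxf1 and Alyref. All 10 were present among the 44749 entries of the count table and all 10 passed the filter on low counts in every comparison. 6 of them were lower after 4OHT in Ythdc1 conditional knockout cells, as were 21.4% of all entries tested. 3 were lower in the libraries labelled Mettl3 KO (14.9% of all entries), and 5 were lower after 4OHT across the Dux libraries (16.2%). Exosc9, Exosc10 and Nxf1 were lower in all 3 of these comparisons, and none of the 10 was higher in any of them. The share of all entries lower in all 3 was not counted, and the Ythdc1 and Dux comparisons both test 4OHT in Ythdc1 cKO cells. In the Ythdc1 set the call of Nxf1 held in 8 of 14 alternative settings, and the Mettl3 calls depended on single libraries.

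The exosome is a barrel of core subunits that threads RNA from the 3′ end to an exonuclease. In the nucleus it degrades transcripts from outside of genes, introns, antisense RNA and mRNA that failed in processing. The helicase MTR4 (gene Mtrex) feeds it through adaptors: the nuclear exosome targeting complex (NEXT), which takes short unadenylated RNA, and the poly(A) tail exosome targeting connection (PAXT), which takes longer polyadenylated RNA. mRNA that escapes this route is packaged by the TREX complex and leaves through the nuclear pore on the export receptor NXF1 with its partner NXT1. YTHDC1, the nuclear reader of the RNA mark m6A, has been linked to export and to the turnover of chromatin-bound RNA, and METTL3 is the catalytic subunit of the enzyme that writes m6A.

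Total RNA depleted of ribosomal RNA was sequenced from 22 libraries in 3 sets. In the Ythdc1 set, Ythdc1 cKO cells of 2 ESC lines were treated with 4OHT (4 libraries), the ligand used to switch on inducible Cre, or with DMSO (4 libraries). In the Mettl3 set, 2 libraries labelled Mettl3 KO were set against 2 labelled Mettl3 WT. In the Dux set all cells were Ythdc1 cKO, and 4OHT and DMSO libraries were made with the genotype labels Dux-KO (2 each), Dux-Het (2 each) and no Dux label (1 each). Dux encodes the transcription factor that opens the gene programme of the 2-cell embryo. The sources used here give neither the Cre driver nor the exons removed nor the time on 4OHT. They do not say that replicates were separate cultures, and p-values therefore cover only the spread among these libraries, which may be technical. The cells were male ESCs from inner cell mass, grown without feeders in serum and LIF.

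Library totals ran from 24.96 to 54.14 M counts. Ythdc1 itself was 62.8, 49.0, 61.2 and 51.8 CPM (the count scaled to the size of its library) in the 4OHT libraries of the Ythdc1 set, against 80.2, 70.8, 73.7 and 77.9 CPM in the DMSO libraries (log2 fold change -0.41 ± 0.0812 SE, edgeR adjusted p = 0.00064). In the Dux set Ythdc1 did not pass the test (log2 fold change -0.21 ± 0.124 SE, edgeR adjusted p = 0.203), and reads of a gene whose deleted part is unknown cannot check the deletion. Mettl3 was 14.5 and 28.4 CPM in the libraries labelled Mettl3 KO, against 29.0 and 29.9 CPM in those labelled Mettl3 WT. The second KO library is thus near WT by this measure. The deleted part of Mettl3 is not known here either, so its reads cannot check the labels, and directions in the Mettl3 set rest on them. Ythdc1 itself was higher in both KO libraries, 135.6 and 154.0 CPM, against 81.7 and 83.6 CPM in WT (log2 fold change 0.82 ± 0.0915 SE, edgeR adjusted p = 0.000236). The part of this rise in the Mettl3 results was not tested. All 8 ESC markers were detected, and their summed level was 1056 to 1317 CPM in the 4OHT libraries of the Ythdc1 set, against 1498 to 1760 CPM in the DMSO libraries. The 8 markers of 2-cell-like cells summed to 81.9 to 170.5 CPM against 7.38 to 27.5 CPM, and the 8 of primitive endoderm to 496.0 to 716.5 CPM against 293.9 to 365.9 CPM, in the same groups. The part of these shifts in the results was not tested, and in bulk RNA fewer cells of a type and less RNA per cell cannot be told apart. In a chi-square of counts per degree of freedom, DMSO replicate 1 of the Ythdc1 set stood apart from its 3 partners (30.97 to 37.05, against 8.441 to 10.82 among those 3). The 2 Dux-KO libraries with DMSO differed most from each other (99.07).

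The 10 genes differed in level. Per kilobase of exon and over all 22 libraries, Pabpn1 was highest at 36.7 ± 4.55 CPM per kb (SD over 22 libraries), above 94.4% of the genes with a mean of at least 1 CPM. Nxf1 followed at 22.5 ± 3.22 and Exosc10 at 18.3 ± 3.35 CPM per kb. Their ranges over libraries overlap, but Nxf1 was above Exosc10 in each of the 22 libraries. Alyref (11.7 ± 3.76), Dis3 (9.96 ± 1.40) and Exosc9 (9.91 ± 2.29 CPM per kb) overlapped when the sets were pooled, and their order changed between sets. With DMSO in the Ythdc1 set, Exosc9 was 12.2 to 15.2, Dis3 10.8 to 12.1 and Alyref 6.59 to 8.96 CPM per kb. With DMSO in Dux-KO cells, Alyref was 17.3 to 17.5, Exosc9 8.51 to 10.1 and Dis3 7.64 to 10.9 CPM per kb. Zcchc8 (8.27 ± 1.11), Zfc3h1 (7.50 ± 1.29) and Exosc3 (6.43 ± 1.89 CPM per kb) overlapped in range, with Zcchc8 above Zfc3h1 in 21 of 22 libraries and Zfc3h1 above Exosc3 in 18. Rbm7 was lowest at 4.96 ± 0.712 CPM per kb, still above 58.4% of those genes. Zcchc8 was thus above its NEXT partner Rbm7 by this length, and Exosc3, a gene of 1324 exon bases, had the fewest counts, 179 to 613 per library. The length is that of all annotated exons of a gene joined. It is 4709 bases for Exosc9 and 4941 for Rbm7, whose longest coding transcripts have 1617 and 2629 bases. For Zcchc8 the lengths are closer, 5251 and 4350 bases. The order therefore holds for joined exons only, and the order by transcript length was not tested.

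**Figure D1:**
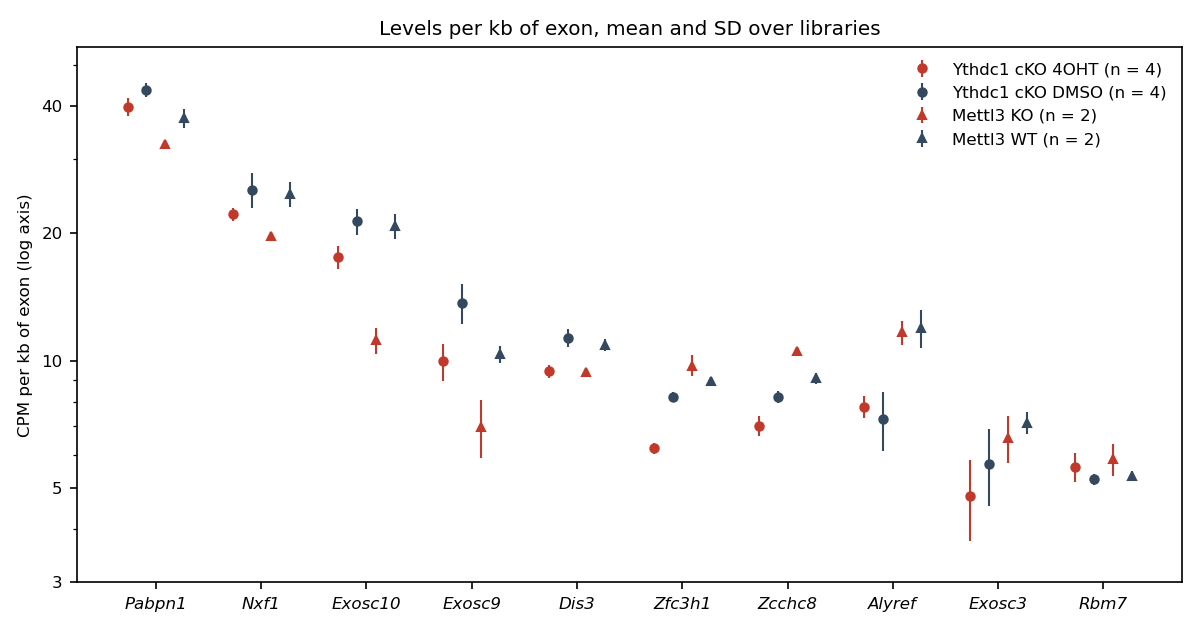
Level of each factor in CPM per kb of exon (log axis), mean and SD over the libraries of 4 groups: Ythdc1 cKO with 4OHT and with DMSO (n = 4 each), and libraries labelled Mettl3 KO and Mettl3 WT (n = 2 each). By the length of all exons joined, Pabpn1, Nxf1 and Exosc10 lead in the DMSO group. The mean of Exosc10 is lower in the KO group than in the other 3 groups.

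Gene positions follow GENCODE vM21, build GRCm38 (mm10). Exosc10 lies on chromosome 4 from 148558429 to 148582401, Exosc9 on chromosome 3 from 36552606 to 36565727 and Nxf1 on chromosome 19 from 8757073 to 8770922, all on the plus strand. Zfc3h1 lies on chromosome 10 (115384959 to 115432772, plus strand), Zcchc8 on chromosome 5 (123698294 to 123721100, minus strand), Dis3 on chromosome 14 (99075206 to 99099770, minus strand) and Exosc3 on chromosome 4 (45316613 to 45342732, minus strand). RefSeq promoter windows, 250 bases before to 50 after the annotated start on GRCm38.p6, were matched by symbol for 9 of the 10 genes, all but Exosc9. The windows of the 5 other genes that were called lower after 4OHT in the Ythdc1 set are shown. They were picked by that result, and neither joint movement nor shared control of these genes was tested. They are chr4:148558169-148558468 (plus strand) for Exosc10, chr14:99099721-99100020 (minus) for Dis3, chr19:8756853-8757152 (plus) for Nxf1, chr5:123720995-123721294 (minus) for Zcchc8 and chr10:115384709-115385008 (plus) for Zfc3h1. Capitals mark matches, on either strand, to any of 6 motifs. These were the palindrome CTCGCGAG, the ETS-type motif CCGGAAG, the NRF1-type motif GCGCATGCG, the GC box GGGCGG, the CCAAT box, and the TATA box searched as TATAAA.
Exosc10: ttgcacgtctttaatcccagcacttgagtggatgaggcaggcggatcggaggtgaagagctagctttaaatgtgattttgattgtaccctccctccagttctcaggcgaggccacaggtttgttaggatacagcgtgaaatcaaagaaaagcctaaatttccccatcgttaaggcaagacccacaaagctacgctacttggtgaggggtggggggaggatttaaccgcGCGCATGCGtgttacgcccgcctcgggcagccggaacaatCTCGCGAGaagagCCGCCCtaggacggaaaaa
Dis3: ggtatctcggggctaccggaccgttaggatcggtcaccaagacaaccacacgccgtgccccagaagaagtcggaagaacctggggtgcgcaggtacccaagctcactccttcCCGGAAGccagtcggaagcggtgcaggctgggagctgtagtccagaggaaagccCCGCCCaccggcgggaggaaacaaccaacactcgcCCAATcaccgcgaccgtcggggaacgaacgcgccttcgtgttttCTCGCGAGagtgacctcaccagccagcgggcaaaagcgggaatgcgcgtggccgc
Nxf1: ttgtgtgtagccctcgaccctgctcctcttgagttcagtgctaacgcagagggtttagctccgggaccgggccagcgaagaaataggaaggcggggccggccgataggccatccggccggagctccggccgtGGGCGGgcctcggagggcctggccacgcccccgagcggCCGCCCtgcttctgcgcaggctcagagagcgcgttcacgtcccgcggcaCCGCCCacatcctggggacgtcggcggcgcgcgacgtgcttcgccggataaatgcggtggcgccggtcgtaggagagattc
Zcchc8: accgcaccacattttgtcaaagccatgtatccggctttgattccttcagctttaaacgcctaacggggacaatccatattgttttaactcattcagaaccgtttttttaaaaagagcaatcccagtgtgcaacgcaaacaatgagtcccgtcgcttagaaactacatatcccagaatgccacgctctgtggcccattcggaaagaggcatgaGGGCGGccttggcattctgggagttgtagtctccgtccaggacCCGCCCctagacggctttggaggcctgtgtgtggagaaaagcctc
Zfc3h1: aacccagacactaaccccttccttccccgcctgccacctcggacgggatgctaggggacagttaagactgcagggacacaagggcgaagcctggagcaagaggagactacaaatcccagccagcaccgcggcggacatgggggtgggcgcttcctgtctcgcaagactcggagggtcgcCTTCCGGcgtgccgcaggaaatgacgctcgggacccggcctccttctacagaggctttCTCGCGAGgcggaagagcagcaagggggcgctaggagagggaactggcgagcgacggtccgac

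The motifs were chosen after the sequences had been read. CTCGCGAG stood in the windows of Exosc10 and Dis3, the genes of both nuclear exonucleases, and of Zfc3h1, and in no other of the 9, against 0.919% of all 32851 promoter windows in the table. GCGCATGCG stood in that of Exosc10 alone of the 9 (1.75% of all windows). CCGGAAG stood in 4 of the 9 (Zfc3h1, Exosc3, Dis3 and Alyref, 8.86% of all) and GGGCGG in 6 (35.7% of all). CCAAT stood in 3 of the 9 (37.4% of all), and TATAAA only in that of Alyref (13.6% of all). A match is a description of these letters and not a site. The motifs were chosen from these windows, which hold more CpG than the median window, so the shares do not test enrichment. The windows of the 9 genes held 12 to 54 CpG, with Exosc3 lowest and Alyref highest, where the median of all windows was 7. In the longest coding transcript the letters GGACT, the commonest form of the m6A motif, occurred 3.94 times per kb in Pabpn1, more than in 99.4% of 21405 genes. They occurred 1.79 times per kb in Exosc10, 0.194 in Dis3 and 0.23 in Zcchc8, where the median gene had 1.02.

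To ask what treatment of Ythdc1 cKO cells with 4OHT does to these factors, 4 4OHT libraries were compared with 4 DMSO libraries. 6 of the 10 genes were lower and none was higher, where 45.1% of the 24385 entries tested were called, 21.4% lower and 23.7% higher. The groups of those 6 genes did not overlap in CPM, which held in this direction for 20.7% of all entries tested. The median log2 fold change was -0.22 over the 10 genes and 0.02 over all entries. Here and below, an adjusted p is that of the quasi-likelihood test in edgeR, adjusted by Benjamini-Hochberg over all entries of the comparison.

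**Figure D2:**
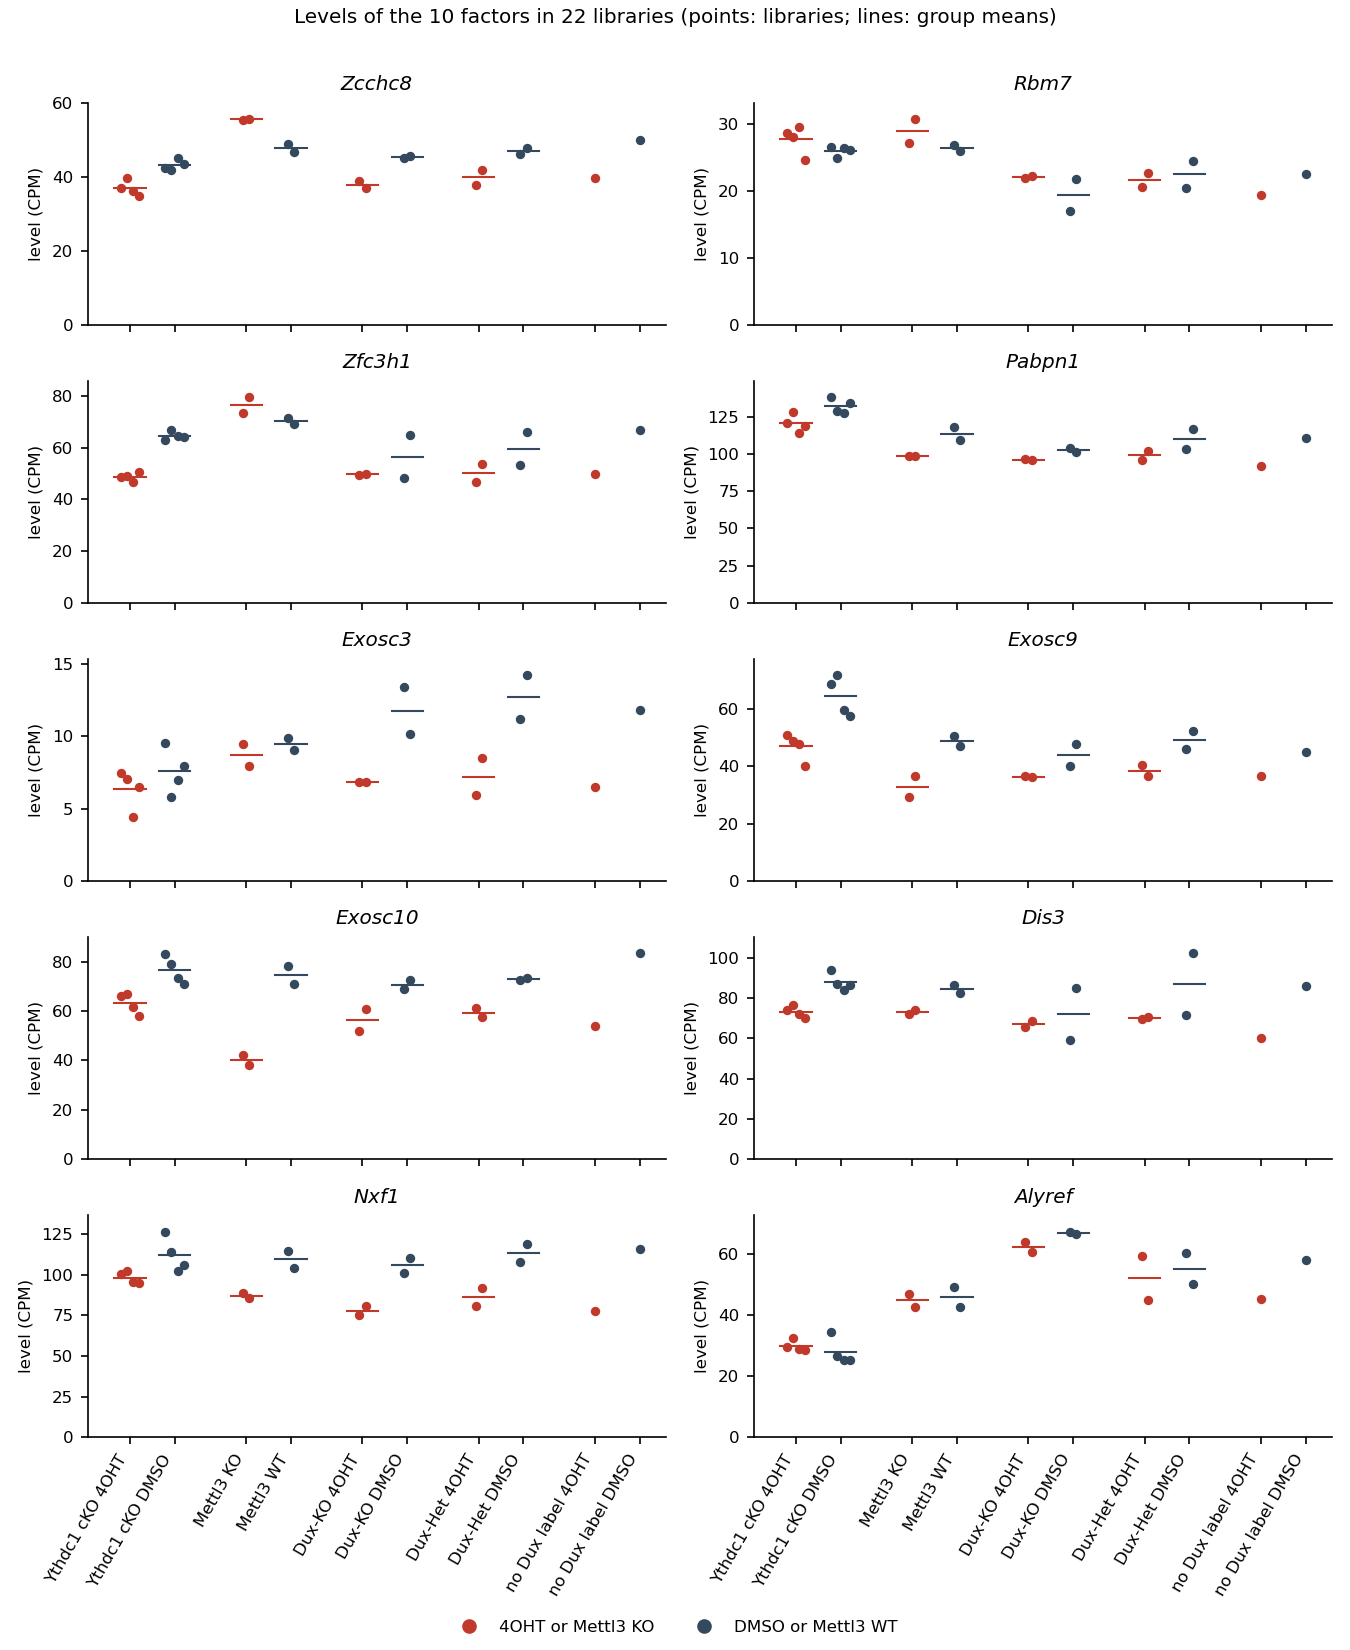
Level of each factor (CPM, linear axis from 0) in every library, with 4OHT or Mettl3 KO libraries in red to the left of their DMSO or Mettl3 WT libraries in dark blue. Points are libraries and lines are group means, and in the Ythdc1 set the 2 groups do not overlap for Zcchc8, Zfc3h1, Exosc9, Exosc10, Dis3 and Nxf1.

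Of the NEXT adaptors, Zcchc8, the zinc-knuckle scaffold of the complex, was 37.0, 39.6, 36.2 and 34.8 CPM with 4OHT, against 42.3, 41.7, 45.0 and 43.5 CPM with DMSO. All 4 4OHT libraries were below all DMSO libraries, and the level fell by 13.1% (log2 fold change -0.20 ± 0.0677 SE, edgeR adjusted p = 0.0221). This call was lost without DMSO replicate 3 (adjusted p = 0.0541), 4OHT replicate 3 (0.0559) or 4OHT replicate 4 (0.0582). Rbm7, the RNA-binding subunit that pairs with it, was 28.6, 28.1, 29.6 and 24.6 CPM with 4OHT, against 26.5, 24.9, 26.4 and 26.1 CPM with DMSO. Its groups overlapped and it did not pass the test (log2 fold change 0.12, 95% interval -0.04 to 0.27, edgeR adjusted p = 0.245).

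Of the PAXT adaptors, Zfc3h1, the zinc-finger scaffold that links MTR4 to polyadenylated RNA, was 48.8, 49.0, 46.8 and 50.5 CPM with 4OHT, against 62.9, 66.7, 64.7 and 64.1 CPM with DMSO. The gap between the groups was wider than either group, and Zfc3h1 fell by 23.4% (log2 fold change -0.38 ± 0.0587 SE, edgeR adjusted p = 5.59e-05). Pabpn1, the nuclear poly(A)-binding protein, averaged 120 ± 5.88 CPM with 4OHT and 132 ± 4.99 CPM with DMSO (SD, n = 4 each). It did not pass the test (log2 fold change -0.11, 95% interval -0.22 to -0.00, edgeR adjusted p = 0.113), and 21.4% of its exon bases are also exon of Gm20521, an entry of its own, on the same strand, so the split of reads between them is uncertain.

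Of the core subunits, Exosc9, part of the ring of the barrel, was 51.0, 48.7, 47.8 and 40.2 CPM with 4OHT, against 68.8, 71.8, 59.8 and 57.6 CPM with DMSO. Every 4OHT library was below every DMSO library, and the fall of 26% was the largest of the 10 genes by size (log2 fold change -0.44 ± 0.0838 SE, edgeR adjusted p = 0.000473). Its last exons face those of Ccna2, a cyclin gene on the opposite strand, over 510 bases or 10.8% of its exon length. Ccna2 was more abundant, 160.5, 181.5, 160.1 and 141.1 CPM with 4OHT against 244.9, 269.9, 237.4 and 251.2 CPM with DMSO, and also fell (log2 fold change -0.62 ± 0.0693 SE, edgeR adjusted p = 2.34e-06). The sources used here do not say whether counting used strand, so a share of Ccna2 reads in Exosc9 cannot be told apart. Exosc3, a cap subunit that contacts incoming RNA, was 7.43, 7.07, 4.38 and 6.50 CPM with 4OHT, against 9.52, 5.83, 6.98 and 7.97 CPM with DMSO. The groups overlapped, and it did not pass the test (log2 fold change -0.23, 95% interval -0.57 to 0.11, edgeR adjusted p = 0.311). Dcaf10, which lies opposite 4% of its exon bases, was higher with 4OHT (log2 fold change 0.53 ± 0.0975 SE).

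Both catalytic subunits fell. Exosc10, the 3′ exonuclease restricted mainly to the nucleus, was 65.9, 66.8, 61.8 and 57.9 CPM with 4OHT, against 82.9, 79.1, 73.4 and 71.1 CPM with DMSO. It was lower by 16.3% (log2 fold change -0.26 ± 0.0667 SE, edgeR adjusted p = 0.00476), with no overlap. Dis3, the processive exonuclease and endonuclease at the base of the barrel, was 74.2, 76.5, 72.1 and 70.2 CPM with 4OHT, against 94.1, 87.1, 84.1 and 86.6 CPM with DMSO. It was lower by 15.4% (log2 fold change -0.24 ± 0.0578 SE, edgeR adjusted p = 0.00266), again with no overlap, and 4.19% of its exon bases lie opposite exons of Pibf1.

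Of the export factors, Nxf1 was 100.5, 102.1, 95.5 and 94.9 CPM with 4OHT, against 126.5, 113.9, 102.6 and 105.7 CPM with DMSO. The lowest DMSO library was only just above the highest 4OHT library, and the fall of 11.1% was the weakest of the 6 calls (log2 fold change -0.17 ± 0.0645 SE, edgeR adjusted p = 0.0418). It was lost without DMSO replicate 1 (adjusted p = 0.131), DMSO replicate 2 (0.0831), 4OHT replicate 1 (0.0568), 4OHT replicate 3 (0.105) or 4OHT replicate 4 (0.0909), and with gene entries alone in the scaling (0.0597). Alyref, the TREX adaptor that passes mRNA to NXF1, was 29.5, 32.4, 28.8 and 28.6 CPM with 4OHT, against 34.4, 26.7, 25.4 and 25.3 CPM with DMSO. It did not pass the test (log2 fold change 0.12, 95% interval -0.07 to 0.30, edgeR adjusted p = 0.335). The high DMSO value belongs to replicate 1, the library that stood apart, and without it Alyref passed the test in the direction opposite to the other calls (log2 fold change 0.23, adjusted p = 0.0261). Without that library 5 of the 10 genes were lower and 1 was higher.

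The Mettl3 set asks what follows in the same factors when the m6A writer is the gene deleted, as the labels give it. 3 of the 10 genes were lower in the libraries labelled KO and none was higher, where 31.2% of 23977 entries were called, 14.9% lower and 16.4% higher. Exosc10 was 42.2 and 38.2 CPM in KO, against 78.2 and 71.0 CPM in WT. It fell by 45.5% (log2 fold change -0.88 ± 0.103 SE, edgeR adjusted p = 0.000297), the largest change of the 10 genes in this set. Exosc9 was 29.3 and 36.5 CPM in KO, against 50.4 and 47.1 CPM in WT (log2 fold change -0.55 ± 0.124 SE, edgeR adjusted p = 0.00862). Ccna2 again moved with it, at 100.5 and 114.9 CPM in KO against 189.8 and 185.7 CPM in WT. Nxf1 was 88.5 and 85.9 CPM in KO, against 114.5 and 104.4 CPM in WT (log2 fold change -0.31 ± 0.0878 SE, edgeR adjusted p = 0.0237). For these 3 genes no KO library reached the level of a WT library, including the KO library whose Mettl3 level was close to WT. Such a gap in this direction held for 33.7% of all entries tested, and in the other direction for 32.6%. Marker levels moved with the labels here too. ESC markers summed to 1043 to 1069 CPM in KO, against 1333 to 1343 CPM in WT, 2-cell-like markers to 95.1 to 103.4 CPM in KO, against 0.902 to 1.35 CPM in WT, and primitive endoderm markers to 360.6 to 440.7 CPM in KO, against 246.5 to 255.7 CPM in WT. Their part in these results was not tested.

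The other 7 genes did not pass the test in the Mettl3 set. Zcchc8 was 55.4 and 55.6 CPM in KO, against 48.8 and 46.7 CPM in WT, without overlap but short of the threshold (log2 fold change 0.23 ± 0.0939 SE, edgeR adjusted p = 0.09). Zfc3h1 was 73.4 and 79.5 CPM in KO, against 71.4 and 69.0 CPM in WT (adjusted p = 0.289). Rbm7 was 27.2 and 30.8 CPM in KO, against 26.9 and 25.9 CPM in WT (adjusted p = 0.367). Pabpn1 was 98.5 and 98.8 CPM in KO, against 117.7 and 109.1 CPM in WT (adjusted p = 0.126). Dis3 was 71.9 and 74.0 CPM in KO, against 86.6 and 82.5 CPM in WT (adjusted p = 0.118). Exosc3 was 9.47 and 7.93 CPM in KO, against 9.85 and 9.06 CPM in WT (adjusted p = 0.684), and Alyref was 46.8 and 42.7 CPM in KO, against 49.2 and 42.5 CPM in WT (adjusted p = 0.926). The groups of these last 2 genes overlapped. With 2 libraries a group the calls depend on each one, and a lone library is then assumed to vary like the other group. Without WT replicate 1 none of the 10 was called (Exosc10 at adjusted p = 0.0623) and 351 entries were called in all, and without WT replicate 2 only Exosc10 was called among 1928 entries. Without KO replicate 1, Pabpn1 was also called lower, and Zcchc8 and Zfc3h1 higher. Without KO replicate 2, the library near WT in Mettl3, Pabpn1 and Dis3 were also called lower, and Zcchc8 higher. In both fits more of all entries were called than in the full fit, in each direction, so the added calls came with a general rise. Over all settings the log2 fold changes ran from -0.24 to -0.15 (Pabpn1) and -0.24 to -0.18 (Dis3). They ran from 0.20 to 0.25 for Zcchc8 and from 0.067 to 0.19 for Zfc3h1.

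**Figure D3:**
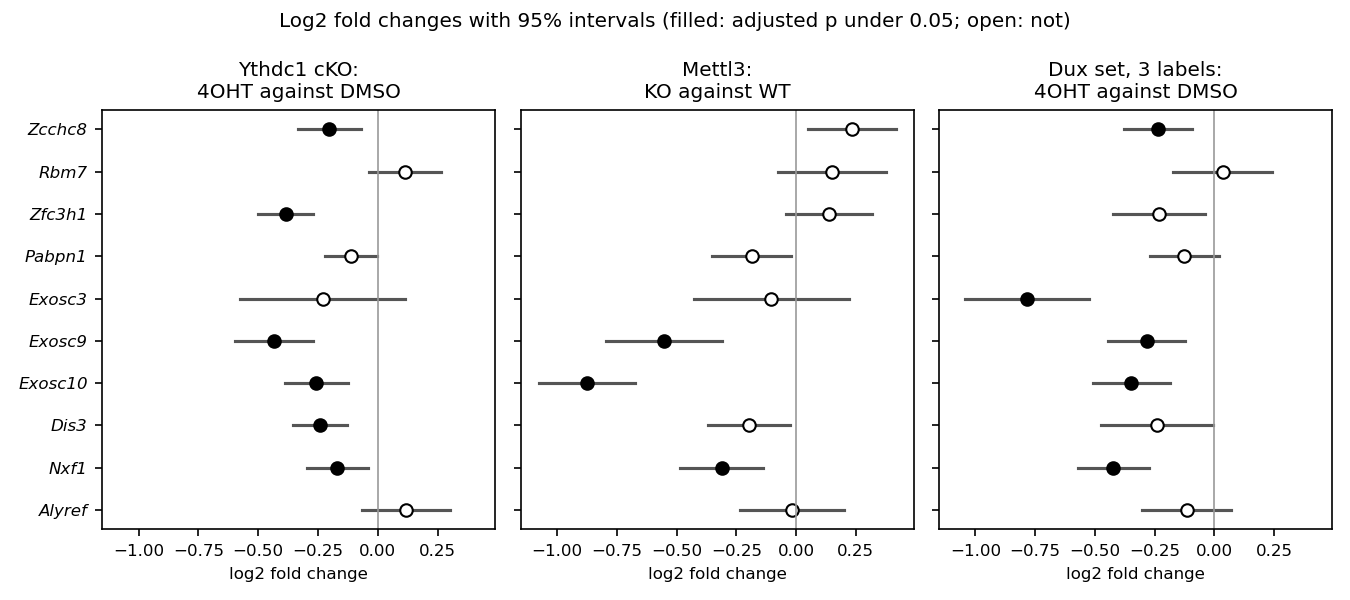
Log2 fold change of each factor with its 95% interval in 3 comparisons: Ythdc1 cKO 4OHT against DMSO, Mettl3 KO against WT, and 4OHT against DMSO over the 3 genotype labels of the Dux set. Filled points passed an adjusted p of 0.05: 6, 3 and 5 genes, all below 0.

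The 2 effects were compared directly in 1 fit of the 12 libraries, as the 4OHT effect in Ythdc1 cKO cells minus the Mettl3 KO effect. 3 of the 10 genes differed, where 25.3% of 28260 entries were called. Exosc10 fell less after 4OHT than in the libraries labelled Mettl3 KO (difference in log2 fold change 0.66 ± 0.121 SE, edgeR adjusted p = 0.000391). Zfc3h1 (difference -0.48 ± 0.1 SE, edgeR adjusted p = 0.00133) and Zcchc8 (difference -0.39 ± 0.113 SE, edgeR adjusted p = 0.0146) differed the other way, since both adaptors fell after 4OHT and had positive values in KO. The difference for Zcchc8 was lost without WT replicate 2 (adjusted p = 0.0626). For Exosc9 (difference 0.16 ± 0.157 SE), Nxf1 (0.19 ± 0.113 SE) and Dis3 (-0.00 ± 0.0983 SE) no difference was detected. The 2 effects come from different sets of cells, and of these 2 sets only the Ythdc1 set is labelled with 4OHT and DMSO. Set, treatment and gene deleted therefore cannot be told apart in these differences. All 4OHT libraries were Ythdc1 cKO, so an effect of 4OHT itself cannot be told apart from that of the deletion.

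In the Dux set, 4OHT and DMSO were compared within Dux-KO and within Dux-Het cells, with 2 libraries a group. None of the 10 genes was called in Dux-KO, where 9.86% of 29322 entries were called, or in Dux-Het, where 9.34% were. 2 of the 10 had an unadjusted p under 0.05 in each, Exosc3 and Nxf1, a share no larger than that of all entries (26.6% in Dux-KO and 25.2% in Dux-Het). Exosc3 was 6.80 and 6.82 CPM with 4OHT, against 13.4 and 10.2 CPM with DMSO, in Dux-KO cells (log2 fold change -0.75 ± 0.238 SE, edgeR adjusted p = 0.0725). In Dux-Het cells it was 5.91 and 8.50 CPM with 4OHT, against 11.2 and 14.2 CPM with DMSO (log2 fold change -0.80 ± 0.237 SE, edgeR adjusted p = 0.0599). DESeq2 called Exosc3 in both (adjusted p = 0.0273 in Dux-KO and 0.0243 in Dux-Het), and so did edgeR with the replicate number as a block (adjusted p = 0.0484 in Dux-KO and 0.0398 in Dux-Het).

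The 4OHT effect did not differ detectably between Dux-KO and Dux-Het cells for any of the 10 genes. No entry of 29322 was called for that difference by edgeR, 481 had an unadjusted p under 0.05, and DESeq2 called 2. The largest difference of the 10 by size was that of Rbm7 (0.26 ± 0.25 SE on the log2 scale), and for Exosc3 it was 0.05 ± 0.334 SE. Dux-KO against Dux-Het itself called none of the 10 under 4OHT (0.276% of all entries called) or under DMSO (0.0341%). The 2-cell-like markers were near 0 in Dux-KO, summing to 0.0795 to 0.0902 CPM with 4OHT and 0.0849 to 0.138 CPM with DMSO. In Dux-Het they summed to 52.2 to 63.2 CPM with 4OHT and 7.23 to 8.11 CPM with DMSO.

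Over the 3 genotype labels together, with label as a covariate, 5 of the 10 genes were lower with 4OHT and none was higher, where 36.4% of entries were called, 16.2% lower and 20.2% higher. Exosc3 had the largest fall, 41.9% (log2 fold change -0.78 ± 0.132 SE, edgeR adjusted p = 0.000535). Every 4OHT library was below every DMSO library of its label, and in the pair with no Dux label, which has no replicate, Exosc3 was 6.52 CPM with 4OHT (95% exact Poisson interval 5.79 to 7.31) against 11.8 CPM with DMSO (10.7 to 12.9). In that pair all 10 genes were lower in the 4OHT library, with intervals that cover counting error only and did not overlap. The same held for 30.8% of the 18835 entries with a mean of at least 1 CPM, whose median log2 ratio was -0.031. Nxf1 fell by 25.4% (log2 fold change -0.42 ± 0.0754 SE, edgeR adjusted p = 0.000799). It was 75.0 and 80.9 CPM with 4OHT against 101.1 and 110.5 CPM with DMSO in Dux-KO, 80.8 and 91.6 against 108.0 and 119.0 CPM in Dux-Het, and 77.7 against 116.0 CPM in the pair with no label. Each 4OHT library was again below the DMSO libraries of its label.

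Exosc10 fell by 21.4% in this comparison (log2 fold change -0.35 ± 0.0817 SE, edgeR adjusted p = 0.00499). It was 52.0 and 60.7 CPM with 4OHT against 68.9 and 72.4 CPM with DMSO in Dux-KO, 61.4 and 57.4 against 72.7 and 73.5 CPM in Dux-Het, and 54.1 against 83.3 CPM in the pair with no label. Exosc9 fell by 17.9% (log2 fold change -0.28 ± 0.0826 SE, edgeR adjusted p = 0.0164) and Zcchc8 by 15.2% (log2 fold change -0.24 ± 0.0728 SE, edgeR adjusted p = 0.0215). All 3 genes were lower in every 4OHT library than in the DMSO libraries of its label, which held for 6 of the 10 genes and for 16.4% of all entries tested. The call of Zcchc8 was lost without the pair with no label (adjusted p = 0.0703), its 4OHT library alone (0.0781) or its DMSO library alone (0.0768), without 4OHT replicate 1 of Dux-Het (0.0592) or 4OHT replicate 2 of Dux-KO (0.0606), and without the filter on low counts (0.0699).

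Zfc3h1 and Dis3 did not pass the test over the 3 labels (log2 fold change -0.23 ± 0.0986 SE, adjusted p = 0.0834, and -0.24 ± 0.12 SE, adjusted p = 0.137). With the replicate number as a block Zfc3h1 passed (adjusted p = 0.0278), and 6 of the 10 genes were lower. In Dux-KO, Dis3 was 65.8 and 68.7 CPM with 4OHT against 59.3 and 84.9 CPM with DMSO, so the DMSO libraries lay on both sides. Without DMSO replicate 1 of Dux-KO, one of the libraries of the pair that stood apart, both genes passed the test (adjusted p = 0.0125 for Zfc3h1 and 0.0155 for Dis3) and 7 of the 10 genes were lower. Dis3 also passed without the filter on low counts (0.0446). Rbm7, Pabpn1 and Alyref had adjusted p-values of 0.83, 0.2 and 0.366. Alyref differed in level between sets, at 25.3 to 34.4 CPM in the 8 libraries of the Ythdc1 set and 42.5 to 67.3 CPM in the other 14, a difference between sets that was not tested.

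The size of the 4OHT effect in the Dux set was set against that in the Ythdc1 set in 1 fit of the 18 libraries, a comparison chosen after the data were seen. None of the 10 genes differed, where 2.1% of 31020 entries were called. For Exosc3 the difference was -0.57 ± 0.229 SE (edgeR adjusted p = 0.207) and for Nxf1 -0.27 ± 0.103 SE (adjusted p = 0.173), both larger falls in the Dux set by value that missed the threshold after adjustment.

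The 10 genes sit in a wider machinery, followed in 8 lists of 70 related genes. In the Ythdc1 set 28 of 69 tested were lower and 7 higher, in the Mettl3 set 23 were lower and 14 higher of 69, and over the Dux labels 25 were lower and 3 higher of 70. The medians of the log2 fold changes were -0.15, -0.08 and -0.22 in that order, where those of all entries were 0.02, 0.02 and 0.05. Of all entries 21.4% were lower and 23.7% higher in the Ythdc1 set, 14.9% and 16.4% in the Mettl3 set, and 16.2% and 20.2% over the Dux labels. The Mettl3 counts rest on WT replicate 1, without which no gene of the lists was called, and were 7 lower and 3 higher without WT replicate 2.

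Of the 9 other exosome core and cofactor genes, 4 were lower and none higher in each of the 3 comparisons, but not the same 4. The shares of all entries lower were 21.4% in the Ythdc1 set, 14.9% in the Mettl3 set and 16.2% over the Dux labels. The Mettl3 calls of these genes were lost without WT replicate 1. In the Ythdc1 set, Exosc8, a ring subunit, was 25.6, 27.7, 26.3 and 25.4 CPM with 4OHT, against 39.6, 43.9, 39.8 and 43.4 CPM with DMSO (log2 fold change -0.65 ± 0.07 SE, edgeR adjusted p = 1.65e-06). Exosc7, another ring subunit (-0.47 ± 0.0919), and Mphosph6, a cofactor that helps bring MTR4 to the exosome (-0.39 ± 0.0798), were also lower there. In the libraries labelled Mettl3 KO, Mphosph6 was 19.96 and 19.5 CPM, against 35.9 and 31.8 CPM in WT (log2 fold change -0.76 ± 0.115 SE, edgeR adjusted p = 0.00115), and Exosc5 (-0.42 ± 0.108) and Exosc2 (-0.37 ± 0.121) were lower too. Over the Dux labels Exosc6 (-0.58 ± 0.158), Exosc7 (-0.53 ± 0.113) and Exosc2 (-0.50 ± 0.0832) were lower.

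Of the 8 other adaptor and TRAMP genes, 3 were lower and 1 higher in the Ythdc1 set, 2 were lower in the Mettl3 set and 1 was lower over the Dux labels. The count over the Dux labels is near the share of all entries lower there (16.2%). Rbm26, an RNA-binding protein found with PAXT, fell (log2 fold change -0.48 ± 0.0708 SE), and Nrde2, which restrains MTR4 in human cells, rose after 4OHT (0.37 ± 0.073 SE, edgeR adjusted p = 0.000573). In the libraries labelled Mettl3 KO, the poly(A) polymerase gene Tent4b (-0.82 ± 0.114 SE) and Mtrex itself (-0.32 ± 0.094 SE, edgeR adjusted p = 0.0285) were lower. Of the 6 cap-binding and ARS2 genes, which hand capped RNA to decay or export, 2 were lower and 1 higher in the Ythdc1 set, and 3 were lower and 2 higher in the Mettl3 set. Ncbp1, the large cap-binding subunit, was lower in the Ythdc1 set (-0.31 ± 0.0586 SE), the Mettl3 set (-0.50 ± 0.098 SE) and the Dux set (-0.38 ± 0.0686 SE). Of the 7 other nuclear decay and early termination genes, 2 were lower and 1 higher in both the Ythdc1 and the Mettl3 set. In the Ythdc1 set the exonuclease gene Xrn2 was among those lower (-0.17 ± 0.0548 SE), and Zc3h4 was the one higher (0.22 ± 0.064 SE). For a list of 7, these counts in the Ythdc1 set are near or below the shares of all entries (21.4% lower and 23.7% higher).

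On the export side, 7 of 16 TREX and adaptor genes were lower and 1 higher in the Ythdc1 set. In the Mettl3 set 4 were lower and 5 higher, and over the Dux labels 8 were lower and 2 higher. The shares of all entries were 21.4% lower and 23.7% higher in the Ythdc1 set, and 14.9% and 16.4% in the Mettl3 set. Over the Dux labels they were 16.2% and 20.2%. All Mettl3 calls in the lists of this paragraph were lost without WT replicate 1. Nxt1, the partner of NXF1 in the export receptor, had the largest changes of this list in size. It was 3.88, 4.36, 4.04 and 2.95 CPM with 4OHT in the Ythdc1 set, against 8.14, 8.32, 7.76 and 7.02 CPM with DMSO (log2 fold change -1.01 ± 0.141 SE, edgeR adjusted p = 2.35e-05). It was 17.8 and 17.0 CPM in the libraries labelled Mettl3 KO, against 9.16 and 8.09 CPM in WT (log2 fold change 1.03 ± 0.142 SE, edgeR adjusted p = 0.000686). The groups did not overlap in either set and lay in opposite orders. Such a gap held for 20.7% of all entries in the lower direction in the Ythdc1 set. In the higher direction in the Mettl3 set it held for 32.6%. The difference between the 2 effects on Nxt1 passed the test (-1.99 ± 0.215 SE, edgeR adjusted p = 1.43e-06). Over the Dux labels Nxt1 fell with 4OHT (-0.79 ± 0.108 SE). Ddx39, which encodes a helicase related to the TREX subunit UAP56, fell in the Mettl3 set (-1.01 ± 0.136 SE) and over the Dux labels (-0.70 ± 0.105 SE). Of 14 TREX-2 and nuclear pore genes 8 were lower and 2 higher in the Ythdc1 set, 6 lower and 1 higher in the Mettl3 set, and 6 lower and 1 higher over the Dux labels. Mcm3ap, the scaffold of TREX-2, rose with 4OHT in the Ythdc1 set (0.44 ± 0.0623 SE), and was 266.1 and 235.8 CPM with 4OHT against 118.2 and 104.6 CPM with DMSO in Dux-KO cells (1.21 ± 0.162 SE, edgeR adjusted p = 0.0015).

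**Figure D4:**
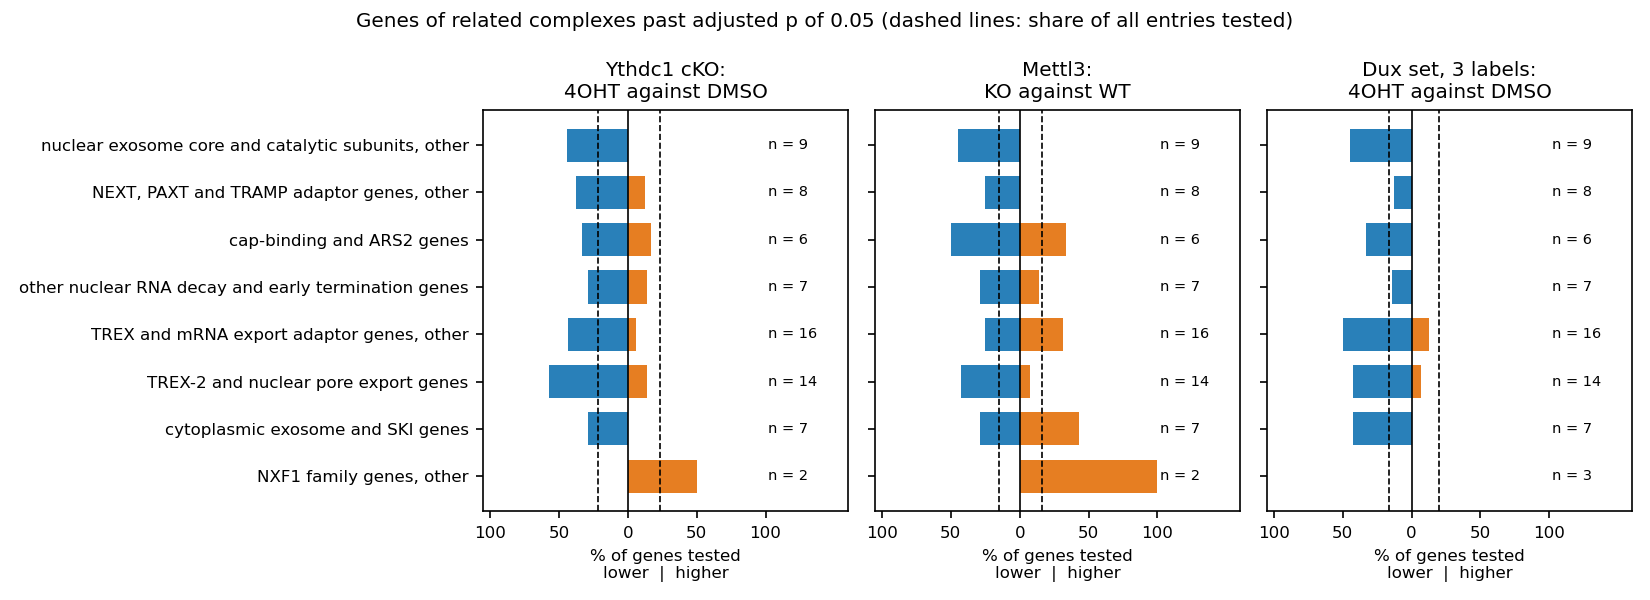
Share of the genes of 8 related lists that were lower (bars to the left, blue) or higher (bars to the right, orange) at an adjusted p under 0.05, in percent of the genes tested (n at the right), in 3 comparisons. Dashed lines give the same shares over all entries tested; none of the 9 other exosome genes was higher in any of the 3 comparisons.

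Across libraries, after centring each gene within its set, the entries most like Exosc9 among 12689 with a mean of at least 5 CPM were Psip1 (Pearson r = 0.953 over 22 libraries), Ctcf (0.95) and Ide (0.95). Those most like Exosc10 were Cfdp1 (0.966), Eif3k (0.962) and Rars (0.956). Among the 10 genes the closest pairs were Pabpn1 with Nxf1 (r = 0.872), Exosc9 with Exosc10 (0.84) and Exosc10 with Nxf1 (0.838). These points share their libraries, treatments and scaling, and the values describe likeness of pattern only.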

How the data were processed

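RNA-seq of 22 libraries was analysed from the table of unscaled whole-number counts that the authors deposited, with 1 entry for each gene or repeat family. Per the submitters' processing notes, bcl2fastq, Bowtie2, STAR 2.7 and RSEM were used, with the build mm10. The sources used here do not name the counting tool, whether it used strand, or how it treated reads with several matches. The authors also deposited normalized signal, the counts over a factor for each library. That file breaks off partway through a line, so its factors were used only to test another scaling.

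Groups follow the sample titles. For the Dux libraries the genotype and treatment fields are shifted by 1 sample against the titles, and the titles match the column names. The columns of the Ythdc1 set carry no ESC line, so its libraries were compared as 4 against 4, not paired by number. By the titles each group of 4 holds replicates of only 2 ESC lines. Differences between the lines are thus left in the spread, and the p-values do not count lines.

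Under R 4.3.3, edgeR 4.0.16 tested the counts by quasi-likelihood after a filter on low counts (filterByExpr by group) and TMM scaling, with a threshold of 0.05 on the p adjusted by Benjamini-Hochberg over all entries. A standard error is the size of the log2 fold change divided by the root of F, and 95% intervals are 1.96 standard errors to each side. The Ythdc1, Mettl3 and Dux sets were fitted apart, the Dux set as 6 group means and, for 4OHT over the labels, with label as a covariate. Differences between sets were fitted over 12 and 18 libraries. Levels are CPM with 1 TMM scaling over all libraries. In libraries simulated from the real means, 79.1% of genes changed 1.5-fold were recovered in the Ythdc1 comparison. The shares were 52.2% in the Mettl3 comparison and 5.97% in Dux-Het. Each simulation had 67 genes changed 1.5-fold, 67 changed 2-fold and 66 changed 4-fold, among 24385, 23977 and 29322 in that order. In the real data 45.1%, 31.2% and 9.34% of entries were called, so the Benjamini-Hochberg cutoff was stricter in the simulation. The recovered shares therefore do not give the recovery in the real comparisons. In the Ythdc1 set the factors followed here moved 1.08-fold to 1.35-fold, below the smallest change simulated. Depth was 24.96 to 54.14 M counts per library. Replicates of 1 group differed by 3.741 to 99.07 in chi-square per degree of freedom, above counting error, so none were merged.

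In the Ythdc1 set, libraries of the same number deviated together from their group means (r = 0.331, 0.13, 0.359 and 0.34 over 10172 entries with a mean of at least 10 CPM), so by the data the numbers pair them. At a mean of at least 5 CPM number 2 had 0.0858. Alternatives were RLE scaling, the authors' factors, gene entries alone, no filter, DESeq2 1.42.0, a replicate block, only the groups compared, and leaving out each library.

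The 10 genes and the 8 related lists were chosen with earlier results of these data known. Related genes named in the text are the 3 with the largest change among those called, per list and comparison, except that not every such gene is reported here, and the levels of Nxt1, Ccna2, Dcaf10 and the other overlapping genes were added after their values were seen. Like patterns were sought for the gene with the largest change in the Ythdc1 and in the Mettl3 set. Promoter windows are from RefSeq on GRCm38.p6, and no table of proteins was used here.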

Additional observations from a re-analysis of the deposited data

Results flagged for a closer look

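Alyref, the TREX adaptor, stood out in 1 library of the DMSO group of the Ythdc1 set: replicate 1 had 34.41 CPM, where the other 3 had 25.28 to 26.69 CPM. The gap to the nearest library was 0.845 of the range of the group, above Dixon's 95% critical value for 4 libraries. 20 such group values were screened (10 genes in 2 groups of 4), and chance alone marks about 1 in 20. It is the library that also stood apart over all entries, and the part of that in the Alyref value was not tested.

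3 genes had effects that differed between the Ythdc1 and the Mettl3 set by a test of the difference itself (edgeR over 12 libraries). For Exosc10, the 4OHT effect minus the Mettl3 KO effect was 0.66 on the log2 scale (adjusted p = 0.000391): both values were below 0, and the fall was larger in the libraries labelled KO. For Zfc3h1 the difference was -0.48 (adjusted p = 0.00133), and for Zcchc8 it was -0.39 (adjusted p = 0.0146). The call of Zcchc8 was lost without WT replicate 2. Set, treatment and gene deleted cannot be told apart in these differences.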

How the results depend on the processing

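In the Ythdc1 set the replicate block changed no call of the 10 genes and gave 11904 entries called, against 11008 without it. In the Mettl3 set, where same-numbered libraries had r = 0.0766, the block also changed none of them. In the Dux set same-numbered libraries deviated together (r = 0.243 in Dux-KO and 0.545 in Dux-Het, 1 independent value for each label), what a number marks is not stated, and the block called Exosc3 in Dux-KO (adjusted p = 0.0484) and in Dux-Het (0.0398), and Zfc3h1 over the 3 labels (0.0278).

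1 of the 10 genes, Exosc3, was called lower in Dux-KO and in Dux-Het by DESeq2, without the filter on low counts and with the block, and in Dux-KO with only the groups compared, where the fit as reported called 0. Over all entries, dropping the filter gave 4701 called in Dux-KO and 4319 in Dux-Het, 272 for Dux-KO against Dux-Het under 4OHT, 124 under DMSO and 28 for the difference of effects. With only the groups compared there were 4914 in Dux-KO and 1032 in Dux-Het, and DESeq2 gave 17 under DMSO and 2 for the difference. Rbm7, never called, changed sign in the Ythdc1 effect minus the Mettl3 effect with RLE (-0.025), DESeq2 (-0.025), no filter (-0.019), gene entries alone (-0.017) and the authors' factors (-0.037), and in Dux-Het with gene entries alone (0.0089). The cause of these moves was not tested.

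Leaving out 1 library, entries called ran from 9910 to 10931 in the Ythdc1 set, 351 to 9716 in the Mettl3 set, 5033 to 7295 for their difference, 423 to 2427 in Dux-KO, 1254 to 2093 in Dux-Het and 8543 to 10657 over the labels. They ran from 30 to 90 and 0 to 15 for Dux-KO against Dux-Het under 4OHT and DMSO, and from 0 to 1 for the difference of effects. Of the 10 genes, 4 to 6 were lower and 0 to 1 higher in the Ythdc1 set, 0 to 5 lower and 0 to 2 higher in the Mettl3 set, and 4 to 7 lower over the labels, with 1 to 2 lower for the difference between sets. Genes that changed sign were never called with either sign. Their log2 fold changes ran from -0.12 to 0.076 (Alyref) and -0.24 to 0.0076 (Exosc3) in the Mettl3 set, -0.32 to 0.18 (Dis3) and -0.37 to 0.037 (Zfc3h1) in Dux-KO, -0.28 to 0.11 (Alyref) and -0.16 to 0.11 (Rbm7) in Dux-Het, and -0.071 to 0.10 (Rbm7) over the labels. For the difference between sets they ran from -0.11 to 0.068 (Rbm7), -0.24 to 0.059 (Exosc3), -0.067 to 0.020 (Dis3) and -0.017 to 0.29 (Exosc9). No scaling moved the median of all entries by more than 0.1.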

Other observations

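The cytoplasmic exosome and its SKI helpers, which degrade mRNA after export, were followed beside the nuclear factors. Of 7 genes, 2 were lower and none higher in the Ythdc1 set, 2 lower and 3 higher in the libraries labelled Mettl3 KO, and 3 lower and none higher with 4OHT over the Dux labels. Of all entries, 21.4% were lower in the Ythdc1 set, 14.9% lower and 16.4% higher in the Mettl3 set, and 16.2% lower over the Dux labels, so the count in the Ythdc1 set is near that of all entries. Dis3l, the cytoplasmic relative of Dis3, was lower with 4OHT in the Ythdc1 set (log2 fold change -0.34 ± 0.0915 SE, edgeR adjusted p = 0.00642), in Dux-KO (-0.87 ± 0.184 SE, adjusted p = 0.0156) and in Dux-Het cells (-0.71 ± 0.184 SE, adjusted p = 0.0358). In the libraries labelled Mettl3 KO it was higher (0.46 ± 0.138 SE, edgeR adjusted p = 0.0309). Pelo, a ribosome rescue factor, was higher in the libraries labelled Mettl3 KO (1.39 ± 0.202 SE, edgeR adjusted p = 0.00094), and over the Dux labels it was lower with 4OHT (-0.43 ± 0.114 SE, adjusted p = 0.00941). Skiv2l, the SKI helicase, was lower in KO (-0.94 ± 0.141 SE, edgeR adjusted p = 0.00109) and over the Dux labels (-0.39 ± 0.112 SE, adjusted p = 0.0157). The KO calls of this list were lost without WT replicate 1.

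Of the NXF1 relatives, 2 of 3 passed the filter in the Ythdc1 and the Mettl3 set. Nxf7 was higher with 4OHT in the Ythdc1 set (log2 fold change 0.76 ± 0.267 SE, edgeR adjusted p = 0.0296) and in the libraries labelled Mettl3 KO (1.60 ± 0.462 SE, adjusted p = 0.0265). Nxf3 was higher in KO (1.48 ± 0.155 SE, adjusted p = 0.000171). The KO calls of both genes were lost without WT replicate 1. Among all entries 23.7% were higher in the Ythdc1 set and 16.4% in the Mettl3 set. No relative was called over the Dux labels.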
